A study of Mus musculus with 78 samples.

Results

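The liver transcriptome of young adult female mice after 2 months of calorie restriction was measured in 3 restricted mice (CR_6m_F), against 3 female controls of the same age (CON_6m_F). These 6 libraries, of 78 in the series, were chosen by their labels, and all expressed genes were compared. All 6 mice were UM-HET3 females of 6 months, a genetically heterogeneous cross, so that mice of 1 group differ in genotype. Controls ate Purina 5LG6 diet, and restricted mice received that diet cut by 40% until sacrifice. Other pairs of 3 and 3 libraries used below are restricted and control UM-HET3 males of 6 months (2 months of restriction) and restricted and control UM-HET3 females of 12 months (8 months of restriction), on the same diet and dose. The hour of collection and the feeding schedule are not given in the sources used here. RNA came from whole frozen liver and was selected for poly(A), so that fewer cells of a type and less RNA per cell cannot be told apart.

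Calorie restriction lowers food intake without malnutrition and lengthens the life of mice. The liver responds to food supply through insulin, glucagon, growth hormone, glucocorticoids and its circadian clock, which together set the balance between making and burning fat and sugar. It is also the main source of plasma proteins, which are folded in the endoplasmic reticulum (ER). ER chaperones are tuned to the folding load by the unfolded protein response, and proteins that fail to fold are passed to the cytosol and destroyed by the proteasome.

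The 6 libraries held 24966328 to 31973353 counts assigned to genes. Scaled to 1000000 counts per library, 10 hepatocyte markers summed to 139900, 116800 and 141900 in restricted mice, against 117500, 120000 and 119300 in controls, with no order between the groups beyond their spread. The second restricted library (CR_6m_F_2) stood apart by RNA of other tissues. Its 38 skeletal muscle markers held 54256 counts, against 641 and 877 in the other restricted libraries and 718, 547 and 548 in controls. The highest of these markers, Acta1 (skeletal actin), Myh8 and Myh1 (myosin heavy chains), had 13869, 9292 and 4797 counts in that library. Others of the list were near absent there, with 7 counts of Myh4, 9 of Pvalb and 0 of Myh7 and Tnnc2. A list of 28 genes of keratinized epithelium, added after the values of this library were seen, had 35822 counts there, against 1444 and 1350 in the other restricted libraries and 874, 620 and 488 in controls. Among them Lor had 9708, Krt13 9121 and Krt4 7986 counts, so that the extra RNA was not of muscle genes alone. Most counts of this list in the 5 other libraries were of 1 gene, Ppl. It had 1255 and 1159 counts in the other restricted libraries, 676, 482 and 341 in controls and 1782 in CR_6m_F_2. In this library 116 genes lay over 5-fold above each of the 5 others, against 0 in each of the other restricted libraries and 4, 2 and 6 in the controls. Of these 116, 78 were called higher in restricted mice with the library and 0 without it. This contrast follows largely from how the 116 were chosen. H19, an imprinted RNA of fetal and muscle tissue, had 98.8 CPM in that library, 1.03 and 0.371 CPM in the other restricted libraries and 0.123, 0.148 and 0.212 CPM in controls.

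**Figure D1:**
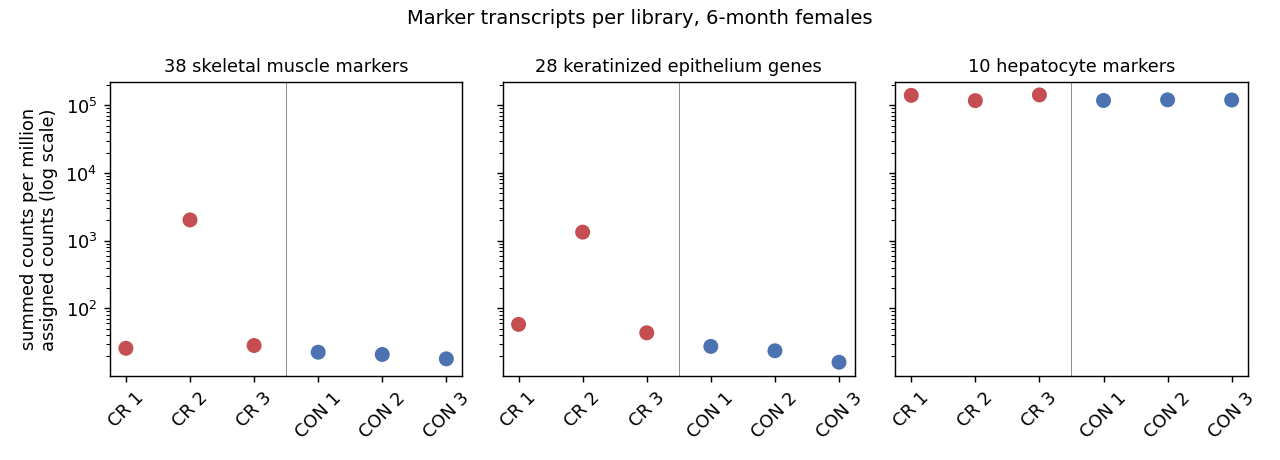
Summed counts of marker lists per 1000000 assigned counts, on a log axis, in each restricted (CR, red) and control (CON, blue) library of 6-month females. Muscle and keratinized epithelium markers are highest in CR 2, at 2021 and 1334, while hepatocyte markers lie between 116800 and 141900 in all 6 libraries.

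Restriction changed 2523 of 14816 genes tested (17%), with 1146 higher (7.73%) and 1377 lower (9.29%), by edgeR's quasi-likelihood test with a Benjamini-Hochberg adjusted p under 0.05. This adjusted p, and log2 fold changes of restricted over control mice with their standard errors (n = 3 libraries per group), are used throughout, and levels are counts per 1000000 after TMM scaling (CPM). A gene that passed this test is written as having risen or fallen. Counts of list members below are to be read beside the shares of all genes, 7.73% higher and 9.29% lower. The 3 restricted values all lay above the 3 control values in 2433 genes (16.4%) and all below in 2578 (17.4%), and 2357 of the 2523 calls were of one of these kinds. Without CR_6m_F_2, 1389 of 15178 genes were called (9.15%), 646 higher (4.26%) and 743 lower (4.9%), and without the first control library 1567. Of the 2523 calls, 1345 were also made without CR_6m_F_2, and 28 had the opposite sign there. A call named below that was lost when 1 library was left out is therefore given with that library. Members of the Mup, Sult3a, Gst, Cyp2b and Cyp4a families share near-identical stretches, so that single values there are less certain, and the strand of counting is not stated.

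**Figure D2:**
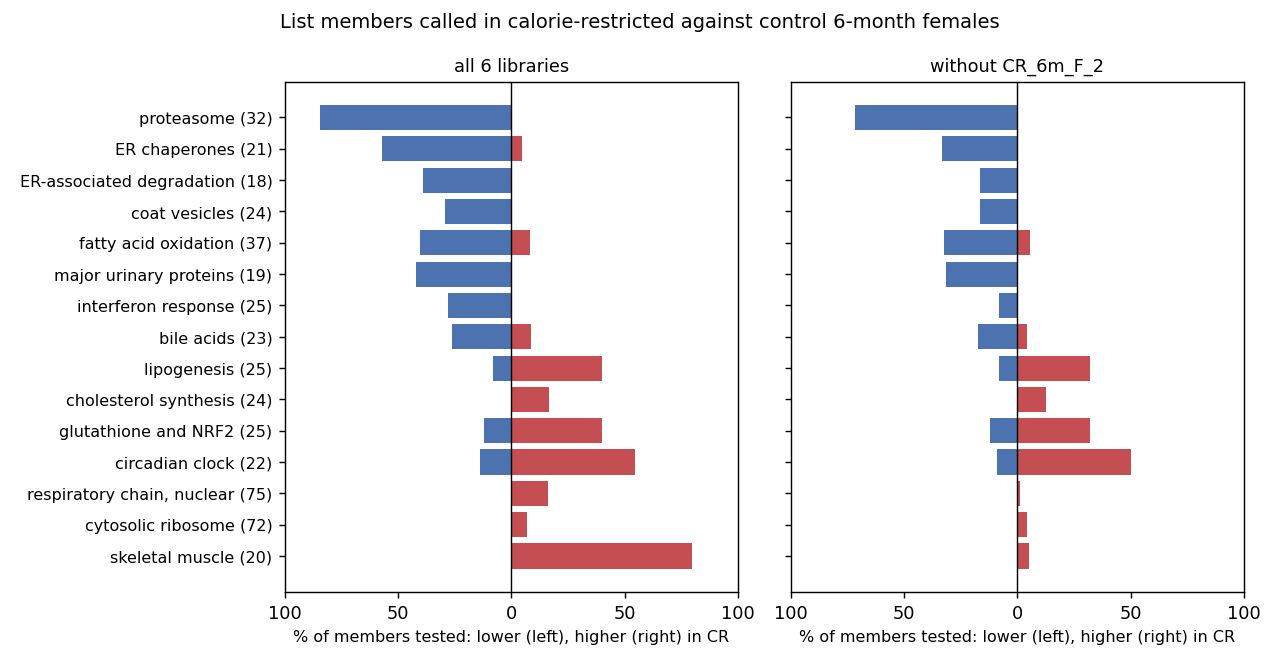
Members of 15 gene lists called lower (blue, left) or higher (red, right) in restricted mice, as a percentage of the members tested in all 6 libraries (their number in brackets), with all 6 libraries and without CR_6m_F_2. Calls were made for 27 proteasome subunits, all lower, with all 6 libraries and for 23 without CR_6m_F_2, while 16 calls of muscle genes became 1.

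Many transcripts of ER protein folding fell. Of 21 ER chaperones and folding enzymes, all of them tested, 12 fell and 1 rose, with a median log2 fold change of -0.85, against 0.01 over all genes tested. Fallen members numbered 4 without control library 3 and 7 without restricted library 2. Risen members numbered 0 without restricted library 2 or control library 1 or 2 and 2 without control library 3. Hspa5, which encodes BiP, the main ER chaperone and the sensor's partner in the unfolded protein response, had 347, 279 and 321 CPM in restricted females, against 899, 671 and 1750.4 CPM in controls. The groups did not overlap (log2 fold change -1.81 ± 0.34, adjusted p = 0.000636), and among controls the third was the highest. Calr, the calcium-binding chaperone calreticulin of glycoproteins, had 263, 260.0 and 293 CPM in restricted females, against 661, 516 and 927 CPM in controls (log2 fold change -1.37 ± 0.24, adjusted p = 0.000319). Dnajb11, a co-chaperone of BiP, had 48.4, 39.4 and 46.7 CPM in restricted females, against 92.8, 72.5 and 139 CPM in controls (log2 fold change -1.18 ± 0.24, adjusted p = 0.00134). Manf, an ER-resident and secreted factor that binds BiP, had 27.7, 26.2 and 24 CPM in restricted females, against 88.7, 58.8 and 193 CPM in controls. Every restricted value of these 4 genes lay below every control value, and each call was kept with any 1 of the 6 libraries left out (Manf, log2 fold change -2.13 ± 0.43, adjusted p = 0.00135). The log2 fold change of Manf was -1.51 without control library 3. Protein disulfide isomerases take part in the same folding cycle. Pdia4 had 108, 94.1 and 115 CPM in restricted females, against 218, 173 and 387 CPM in controls (log2 fold change -1.30 ± 0.30, adjusted p = 0.00376), and Pdia3 fell by 0.87 on the log2 scale. Hyou1, a nucleotide exchange factor for BiP, had 87.3, 59.8 and 76.5 CPM in restricted females, against 190.4, 133 and 372 CPM in controls (log2 fold change -1.64 ± 0.39, adjusted p = 0.00442). The call of Pdia4 was lost without control library 3 (adjusted p = 0.0525), and the call of Pdia3 was lost without control library 3 (adjusted p = 0.0949). The call of Hyou1 was lost without control library 3 (adjusted p = 0.0567). The third control library held the highest control value of each of these 3 genes. Hsp90b1, which encodes the chaperone GRP94, had 372, 315 and 393 CPM in restricted females, against 618, 489.8 and 896 CPM in controls (log2 fold change -0.89 ± 0.25, adjusted p = 0.0147). The call of Hsp90b1 was lost without restricted library 2 or control library 3 (adjusted p = 0.0781 to 0.128), and the call of Creld2 was lost without restricted library 1, 2 or 3 or control library 3 (adjusted p = 0.0962 to 0.416). The call of Sdf2l1 was lost without restricted library 1, 2 or 3 or control library 3 (adjusted p = 0.0558 to 0.178). Creld2, a small ER factor, had 19.7, 20.4 and 17.1 CPM in restricted females, against 37.8, 26.1 and 119.9 CPM in controls (log2 fold change -1.68, and -0.75 without control library 3). Sdf2l1, a member of the BiP complex, had 4.8, 5.28 and 4.49 CPM in restricted females, against 17.2, 8.43 and 43.1 CPM in controls (log2 fold change -2.24, and -1.40 without control library 3). The third control held by far the highest value of both genes. Pdia5 was the 1 member that rose, with 76.6, 81 and 73.5 CPM in restricted females, against 52.4, 49.7 and 59.1 CPM in controls. The call of Pdia5 was lost without restricted library 2 or control library 1 or 2 (adjusted p = 0.0559 to 0.0602). Canx, the membrane-bound partner of calreticulin, had 271, 246 and 260.4 CPM in restricted females, against 324, 278 and 374 CPM in controls, and did not pass (log2 fold change -0.33 ± 0.13, adjusted p = 0.0775), although it did without the second control library (adjusted p = 0.0353).

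The ER stress element, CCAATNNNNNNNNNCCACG read on either strand, is the site through which ATF6 and XBP1 act on chaperone genes, and it is shown because 7 of the 17 chaperone genes with a RefSeq promoter carry it (41.2%), against 37 of 27025 genes (0.137%). Windows run from 250 bases before to 50 after each start, sequences are from RefSeq (GRCm38.p6), printed in the direction of the gene, and capitals mark the match, which is a match of letters and not a measured site. Among genes tested, 19 of 11030 held the element (0.172%). Hsp90b1 has a second match on the other strand. No promoter held an ER stress element that shared bases with the E-box CACGTG shown further on.
Hspa5 (chr2:34772005-34772063, gene on the + strand): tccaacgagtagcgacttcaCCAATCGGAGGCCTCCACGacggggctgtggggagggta
Calr (chr8:84847055-84847113, gene on the - strand): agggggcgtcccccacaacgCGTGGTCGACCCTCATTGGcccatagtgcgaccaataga
Hsp90b1 (chr10:86705618-86705676, gene on the - strand): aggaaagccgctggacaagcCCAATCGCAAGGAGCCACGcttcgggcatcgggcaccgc
Creld2 (chr15:88819500-88819558, gene on the + strand): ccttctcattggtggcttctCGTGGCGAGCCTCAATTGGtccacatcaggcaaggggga
Canx (chr11:50325780-50325838, gene on the - strand): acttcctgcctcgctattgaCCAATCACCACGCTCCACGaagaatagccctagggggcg
Pdia6 (chr12:17266471-17266529, gene on the + strand): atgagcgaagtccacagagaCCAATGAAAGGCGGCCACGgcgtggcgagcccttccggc
Dnajc3 (chr14:118937807-118937865, gene on the + strand): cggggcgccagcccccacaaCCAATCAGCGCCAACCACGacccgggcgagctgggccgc
Of these 7, the first 4 fell and Canx, Pdia6 and Dnajc3 did not pass the test. Of the 10 chaperone genes that fell and have a RefSeq promoter, 4 held the element (40%). Pdia6 had 147, 159 and 144 CPM in restricted females, against 196, 130.1 and 331 CPM in controls (log2 fold change -0.55 ± 0.30, adjusted p = 0.218), where the third control was again the highest. Dnajc3, a co-chaperone and inhibitor of the kinase PERK, had 211, 171 and 207 CPM in restricted females, against 215, 197 and 271 CPM in controls, with groups that overlapped (log2 fold change -0.21 ± 0.19, adjusted p = 0.482).

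Among 13 regulators of the unfolded protein response, 4 fell and 1 rose (median log2 fold change -0.14, and -0.34 without CR_6m_F_2). The risen numbered 2 without control library 3. Xbp1, the transcription factor activated by IRE1 splicing, had 101, 99.8 and 109 CPM in restricted females, against 169, 171 and 249 CPM in controls, with no overlap (log2 fold change -0.92 ± 0.14, adjusted p = 3.57e-05). Mbtps2, the protease that frees ATF6 and SREBP in the Golgi, had 5.17, 5.47 and 6.65 CPM in restricted females, against 11.1, 8.8 and 9.44 CPM in controls (log2 fold change -0.76 ± 0.18, adjusted p = 0.00392). Ppp1r15b, the constitutive subunit that directs dephosphorylation of eIF2alpha, rose, with 169.7, 158 and 145 CPM in restricted females, against 94.9, 115 and 104 CPM in controls (log2 fold change 0.59 ± 0.11, adjusted p = 0.000738). Of the sensors, Atf6b, which encodes a homolog of ATF6, fell, with 20.9, 22.2 and 27.9 CPM in restricted females, against 29.8, 36.5 and 35.5 CPM in controls (log2 fold change -0.52 ± 0.14, adjusted p = 0.00886). The call of Atf6b was lost without restricted library 1 or 2 (adjusted p = 0.053 to 0.0584). Eif2ak3, which encodes the sensor PERK, had 19.3, 12.2 and 12.6 CPM in restricted females, against 18.9, 19 and 28 CPM in controls, with overlap, and did not pass (log2 fold change -0.58 ± 0.22, adjusted p = 0.0699), although it did without restricted library 1 (adjusted p = 0.0236). Ern1, which encodes IRE1, had a log2 fold change of 0.16 ± 0.18, Atf6 -0.10 ± 0.21, Atf4 -0.12 ± 0.18 and Ddit3, which encodes CHOP, -0.14 ± 0.28, and these 4 did not pass. The count tables do not separate spliced from unspliced Xbp1. Of 17 targets of ATF4 that were tested, of 18 listed, 2 fell and 1 rose, although the median log2 fold change was 0.54. Without CR_6m_F_2, the library with RNA of other tissues, the median was 0.0319. The fallen numbered 1 without restricted library 1, 2 or 3 or control library 2 or 3. Those that rose numbered 0 without restricted library 1. The largest change was that of Atf5, a stress-induced transcription factor, with 149.8, 180.0 and 185 CPM in restricted females, against 864, 652 and 752 CPM in controls (log2 fold change -2.14 ± 0.23, adjusted p = 5.88e-07), and the groups lay far apart.

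ER-associated degradation, which pulls misfolded proteins out of the ER, had 7 of 18 members lower and 0 higher (median -0.35). The number was 3 without restricted library 2 or control library 3 and 4 without restricted library 3. Vcp, the ATPase p97 that extracts the proteins, had 222, 232 and 235 CPM in restricted females, against 411, 332 and 428 CPM in controls (log2 fold change -0.77 ± 0.11, adjusted p = 1.97e-05). Its membrane anchor Ubxn4 had 57.1, 53 and 61 CPM in restricted females, against 104, 94 and 126 CPM in controls (log2 fold change -0.92 ± 0.13, adjusted p = 2e-05). Both groups were separate in both genes. Ube2j1, the ubiquitin-conjugating enzyme of this route, fell by 0.44 on the log2 scale. Syvn1, the ligase HRD1, had 58, 54.6 and 51.4 CPM in restricted females, against 94.4, 83.8 and 198 CPM in controls (log2 fold change -1.20 ± 0.36, adjusted p = 0.0215), and Sel1l, its adaptor, fell by 0.67. The call of Syvn1 was lost without restricted library 1, 2 or 3 or control library 3 (adjusted p = 0.0528 to 0.212), and the call of Sel1l was lost without restricted library 2 or control library 3 (adjusted p = 0.108 to 0.18). Herpud1, a component of the HRD1 complex, overlapped between the groups (log2 fold change 0.35 ± 0.30). Of 24 coat and cargo proteins of vesicles between ER and Golgi, 7 fell and 0 rose. Those that fell numbered 4 without restricted library 2. Rises numbered 1 without control library 2. Of the COPII coat, Sec24c had 96.6, 88.5 and 112 CPM in restricted females, against 149.6, 131 and 174 CPM in controls (log2 fold change -0.61 ± 0.11, adjusted p = 0.000462), and Sec13 fell by 0.68 on the log2 scale. Of the COPI coat, Copb1 had 93.5, 73.7 and 91.6 CPM in restricted females, against 126, 130.0 and 125 CPM in controls (log2 fold change -0.56 ± 0.12, adjusted p = 0.00134), and Copb2 fell by 0.59. The calls of these 4 genes, and those of Vcp, Ubxn4 and Ube2j1, were kept with any 1 library left out. Of 26 genes of translocation into the ER and glycosylation, 4 fell and 0 rose with all 6 libraries. Falls numbered 0 without restricted library 2 or control library 3 and 2 without control library 1.

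Most proteasome subunits fell. Of 32 subunits, all tested, 27 fell and 0 rose, with a median log2 fold change of -0.57 and a range of -1.13 to -0.07. Between 22 and 27 fell when 1 library was left out, so that no library moved this count by over 1.5 times. Psmd1, a scaffold of the regulatory particle, had 59.4, 60.2 and 61 CPM in restricted females, against 129, 108 and 131 CPM in controls (log2 fold change -1.03 ± 0.09, adjusted p = 4.78e-08). Psmd14, the deubiquitinase of the lid, had 15.3, 16.3 and 19.4 CPM in restricted females, against 38, 31.3 and 42.1 CPM in controls (log2 fold change -1.13 ± 0.13, adjusted p = 1.73e-06). Psmc1, an ATPase of the base, had 101, 96.9 and 107 CPM in restricted females, against 195, 167 and 193 CPM in controls (log2 fold change -0.87 ± 0.11, adjusted p = 4.92e-06). The spread within each group was small beside the gap between the groups in all 3 genes. Of the core particle, Psma1, an outer-ring subunit, had 40.1, 40.6 and 43.2 CPM in restricted females, against 65, 62 and 75.3 CPM in controls (log2 fold change -0.71 ± 0.11, adjusted p = 5.96e-05). Psmd2 (-0.86), Psmd11 (-0.87) and Psmd12 (-0.74) fell by similar log2 amounts, and the calls of these 7 subunits were kept with any 1 library left out. The 5 subunits that did not pass were Psmb1, Psmb5, Psmb6, Psmb7 and Psmd8, and Psmb7 passed without the second control library (adjusted p = 0.0458). Psmb5, which carries the chymotrypsin-like activity, had 28.9, 38.4 and 42 CPM in restricted females, against 38.5, 35.2 and 62.1 CPM in controls, with groups that overlapped (log2 fold change -0.31 ± 0.25, adjusted p = 0.434). Psmb6, which carries the caspase-like activity, had 119, 118 and 105 CPM in restricted females, against 138, 113 and 147 CPM in controls (log2 fold change -0.22 ± 0.18, adjusted p = 0.445), also with overlap. Outside this list, Sqstm1, the ubiquitin receptor p62, had 343, 408 and 361 CPM in restricted females, against 624, 553 and 716 CPM in controls (log2 fold change -0.77 ± 0.15, adjusted p = 0.000707). Of 20 cytosolic and mitochondrial heat shock genes, 1 fell and 1 rose, below the shares of all genes (9.29% fell and 7.73% rose). Risen members numbered 0 without restricted library 2 or control library 1, 2 or 3. The 1 that fell was Hspa4, an exchange factor of cytosolic HSP70 (103, 91.7 and 98.1 CPM in restricted females, against 152, 133 and 162 CPM in controls, log2 fold change -0.61 ± 0.10, adjusted p = 0.000109). The 1 that rose was Hspa1a, at 7.39 CPM in CR_6m_F_2 and at most 0.668 CPM in the 5 others, and its adjusted p without that library was 0.839 (0.0632 to 0.145 without 1 control).

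**Figure D3:**
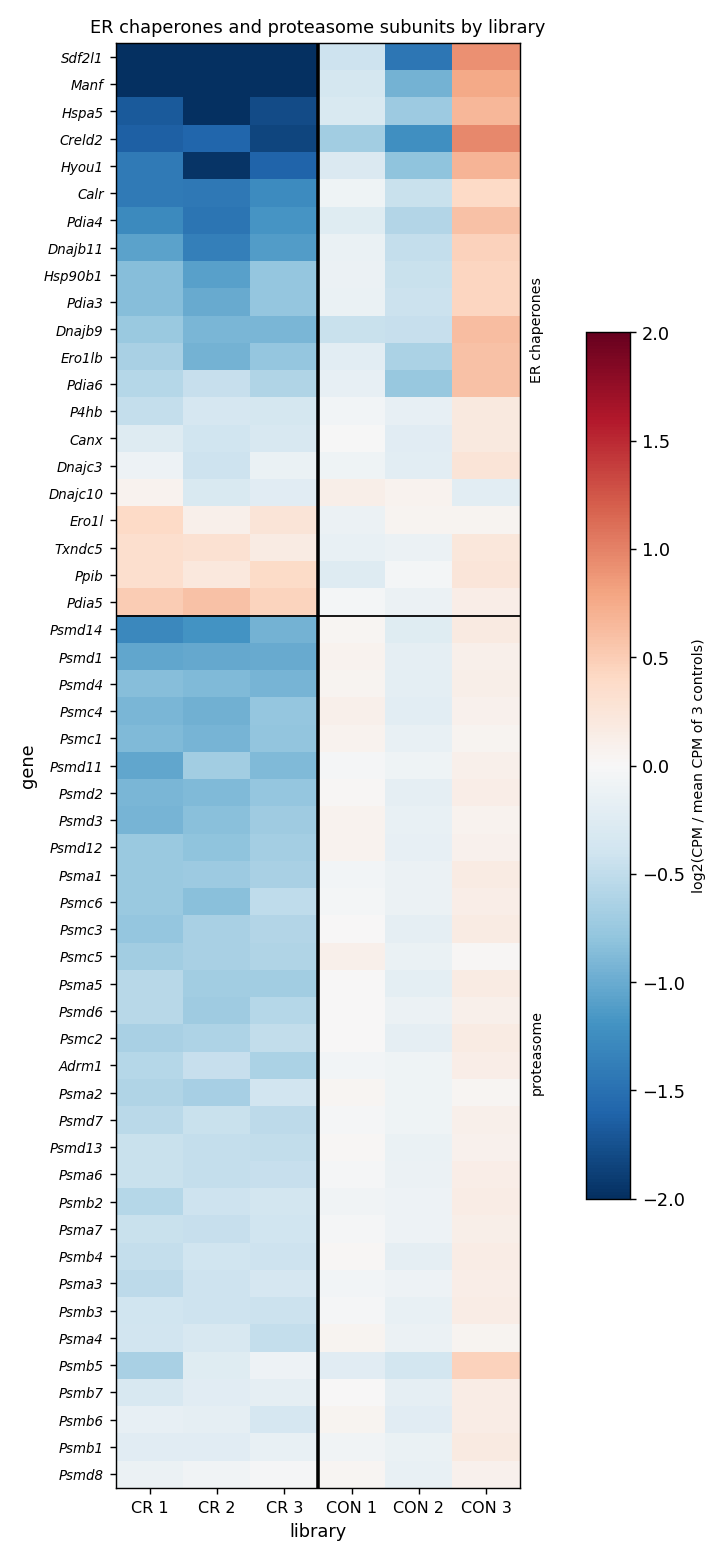
Each gene's CPM in each library over the mean of the 3 controls, on a log2 color scale that is capped at -2 and 2, for ER chaperones (upper block) and proteasome subunits (lower block), sorted by fold change. Restricted libraries (CR) are blue, below the control mean, in most rows of both blocks, and CON 3 is red for many chaperones but not to the same depth for proteasome subunits.

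Circadian clock genes were displaced in both directions. The clock is a feedback loop in which CLOCK and BMAL1 drive Per, Cry and Nr1d1 genes through E-boxes, and PER, CRY and REV-ERB proteins repress it in turn. Of 22 clock and output genes, 12 rose and 3 fell (median 1.11), and 8 to 12 rose with 1 library left out. Of the repressors, Cry1 had 44.3, 41.6 and 48 CPM in restricted females, against 10.8, 10.7 and 6.23 CPM in controls (log2 fold change 2.27 ± 0.27, adjusted p = 1.9e-06). Per2 had 85.3, 76.2 and 63.2 CPM in restricted females, against 9.09, 15 and 18.6 CPM in controls (log2 fold change 2.40 ± 0.37, adjusted p = 9.13e-05), and Cry2 rose by 1.02 on the log2 scale. All restricted values lay above all control values in these 3 genes. Nr1d1, which encodes REV-ERBalpha, moved the other way, with 37.2, 20.5 and 13.8 CPM in restricted females, against 119.6, 165 and 150.0 CPM in controls (log2 fold change -2.60 ± 0.36, adjusted p = 2.5e-05). All its restricted values lay below all its control values. Npas2, a paralog of Clock, had 0.164, 0.151 and 0.0337 CPM in restricted females, against 4.39, 1.45 and 1.13 CPM in controls (log2 fold change -4.31 ± 0.92, adjusted p = 0.00179, with a log2 fold change of -3.46 without control library 1), so that it was near the limit of detection in restricted mice. Arntl, which encodes BMAL1, had 6.36, 6.41 and 9.48 CPM in restricted females, against 22, 13.6 and 7.78 CPM in controls, with groups that overlapped (log2 fold change -0.96 ± 0.54, adjusted p = 0.239).

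Several output genes of the clock rose as well. Tef and Hlf encode transcription factors that bind D-boxes and drive detoxification genes. Tef had 285, 274 and 235 CPM in restricted females, against 70.9, 123 and 128 CPM in controls (log2 fold change 1.30 ± 0.28, adjusted p = 0.00179). Hlf had 119, 104 and 110.2 CPM in restricted females, against 48.2, 63.9 and 64.8 CPM in controls (log2 fold change 0.91 ± 0.16, adjusted p = 0.000283). Usp2, a deubiquitinase with a strong daily rhythm in liver, had 102, 87.1 and 97.1 CPM in restricted females, against 9.89, 12.1 and 9.23 CPM in controls (log2 fold change 3.19 ± 0.63, adjusted p = 0.00115). Wee1, a kinase that holds back mitosis and a direct clock target, had 30.2, 23.8 and 19 CPM in restricted females, against 1.51, 2.75 and 4.35 CPM in controls (log2 fold change 3.09 ± 0.70, adjusted p = 0.00346). The groups were separate in each of these 4 genes, and their calls and those of the clock genes above were kept with any 1 library left out. Dbp, the third factor of the D-box family, had 63.3, 59.5 and 41.1 CPM in restricted females, against 3.47, 27 and 40.4 CPM in controls and did not pass (log2 fold change 1.21 ± 0.83, adjusted p = 0.349); its first control lay far below the other two controls. Ciart, a repressor of the loop, had 17, 8.45 and 12.7 CPM in restricted females, against 0.707, 1.6 and 1.7 CPM in controls (log2 fold change 3.26 ± 0.99, adjusted p = 0.0233). Per1 had 93.6, 75.4 and 76.8 CPM in restricted females, against 26.7, 35.9 and 42.6 CPM in controls (log2 fold change 1.22 ± 0.38, adjusted p = 0.0269). The call of Ciart was lost without restricted library 1 or control library 1, 2 or 3 (adjusted p = 0.0585 to 0.106), and the call of Per1 was lost without restricted library 1 or 2 or control library 1 or 2 (adjusted p = 0.0577 to 0.128). All restricted values of both genes were above all control values with the 6 libraries. Since hour of collection is not given, a difference in hour and a difference in clock phase or level cannot be told apart.

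E-boxes (CACGTG, a palindrome that reads alike on both strands) are shown for clock genes that rose, because they are the site of CLOCK and BMAL1. Of 18 clock genes with a RefSeq promoter, 5 held one (27.8%), against 2187 of 27025 genes (8.09%). Among genes tested the number was 1256 of 11030 (11.4%). Capitals mark the E-box, and Ciart holds 3, of which the one nearest to the start is shown. The RefSeq windows and build are as above.
Cry1 (chr10:85185089-85185134, gene on the - strand): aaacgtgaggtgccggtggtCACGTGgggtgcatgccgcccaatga
Per1 (chr11:69098763-69098808, gene on the + strand): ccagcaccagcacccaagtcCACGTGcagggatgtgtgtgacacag
Tef (chr15:81802526-81802571, gene on the + strand): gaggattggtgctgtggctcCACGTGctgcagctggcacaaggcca
Ciart (chr3:95882247-95882292, gene on the - strand): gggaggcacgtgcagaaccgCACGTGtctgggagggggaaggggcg
The fifth, Bhlhe41, was not among the genes that rose. Of 8 risen clock genes with a RefSeq promoter, 4 held an E-box, and the presence of these letters says nothing of binding in these mice.

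A good part of the genes of fat synthesis rose in restricted mice. Of 25 lipogenic genes, 10 rose and 2 fell (median 0.91), and 8 to 12 rose with 1 library left out. Thrsp, which encodes the lipogenic regulator Spot 14, had 153, 165 and 278 CPM in restricted females, against 3.66, 6.05 and 10.2 CPM in controls (log2 fold change 4.90 ± 0.67, adjusted p = 2.58e-05), the largest rise among the genes chosen by size of change. Its lowest restricted value was far above its highest control value. Both transcription factors of the pathway rose. Srebf1, which answers insulin, had 209.7, 260.4 and 268 CPM in restricted females, against 66.2, 66.3 and 89.4 CPM in controls (log2 fold change 1.73 ± 0.36, adjusted p = 0.00134). Mlxipl, which encodes the glucose-sensing ChREBP, had 256, 272 and 222 CPM in restricted females, against 123, 142 and 166 CPM in controls (log2 fold change 0.80 ± 0.17, adjusted p = 0.00208). The groups did not overlap in either gene. Acly, which makes cytosolic acetyl-CoA from citrate, had 229.9, 227 and 243 CPM in restricted females, against 90.7, 103 and 121 CPM in controls (log2 fold change 1.15 ± 0.17, adjusted p = 3.98e-05). Pklr, the liver pyruvate kinase and a ChREBP target, had 257, 181 and 267 CPM in restricted females, against 58.7, 62.2 and 128 CPM in controls (log2 fold change 1.50 ± 0.28, adjusted p = 0.000528). Neither of these 2 overlapped between the groups. Elovl6, which lengthens palmitate, rose by 1.21 and Dgat2, which makes triglyceride, by 0.94 on the log2 scale. Acss2, which activates acetate, had 78.6, 188 and 154 CPM in restricted females, against 49.2, 64.9 and 82.8 CPM in controls (log2 fold change 1.10 ± 0.23, adjusted p = 0.00134), and its lowest restricted value lay below the highest control. The 2 members that fell were Elovl5 and Insig2. Elovl5, an elongase of polyunsaturated fatty acids, had 343, 672 and 475 CPM in restricted females, against 1374, 957 and 1393 CPM in controls (log2 fold change -1.32 ± 0.30, adjusted p = 0.00339). Insig2, which retains SREBP in the ER, had 130.0, 145 and 201 CPM in restricted females, against 601, 421 and 397 CPM in controls (log2 fold change -1.57 ± 0.38, adjusted p = 0.00547). The calls of the genes named so far in this paragraph were kept with any 1 library left out.

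The core enzymes of fatty acid synthesis showed wider control spread. Fasn, fatty acid synthase, had 361, 318 and 353 CPM in restricted females, against 102, 138 and 271 CPM in controls, with no overlap but an adjusted p of 0.129 (log2 fold change 1.01 ± 0.45). Without the third control library it passed (adjusted p = 0.0491). Acaca and Acacb, the acetyl-CoA carboxylases, had log2 fold changes of 0.61 ± 0.25 and 0.90 ± 0.34 and did not pass. Scd1, the stearoyl-CoA desaturase, had 3013, 3763 and 1593 CPM in restricted females, against 213, 1022 and 6464 CPM in controls. Its control values spanned more than its restricted values, and the groups overlapped (log2 fold change 0.12 ± 0.82, adjusted p = 0.944). Of 24 genes of cholesterol synthesis, 4 rose and 0 fell (median 0.63). Fallen members numbered 1 without restricted library 3 or control library 2. The risen numbered 14 without control library 3. Pmvk, phosphomevalonate kinase, had 41.5, 83.9 and 61.8 CPM in restricted females, against 16.3, 16 and 27.2 CPM in controls (log2 fold change 1.65 ± 0.29, adjusted p = 0.000347). Acat2, which condenses acetyl-CoA, rose by 1.05, and Dhcr7, which catalyzes the last step, by 1.24 on the log2 scale. These 3 calls were kept with any 1 library left out. The call of Ebp was lost without restricted library 2 or 3 or control library 1 or 2 (adjusted p = 0.0749 to 0.16). Ebp, the sterol isomerase, had 176, 225 and 208 CPM in restricted females, against 149, 131 and 165 CPM in controls.

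**Figure D4:**
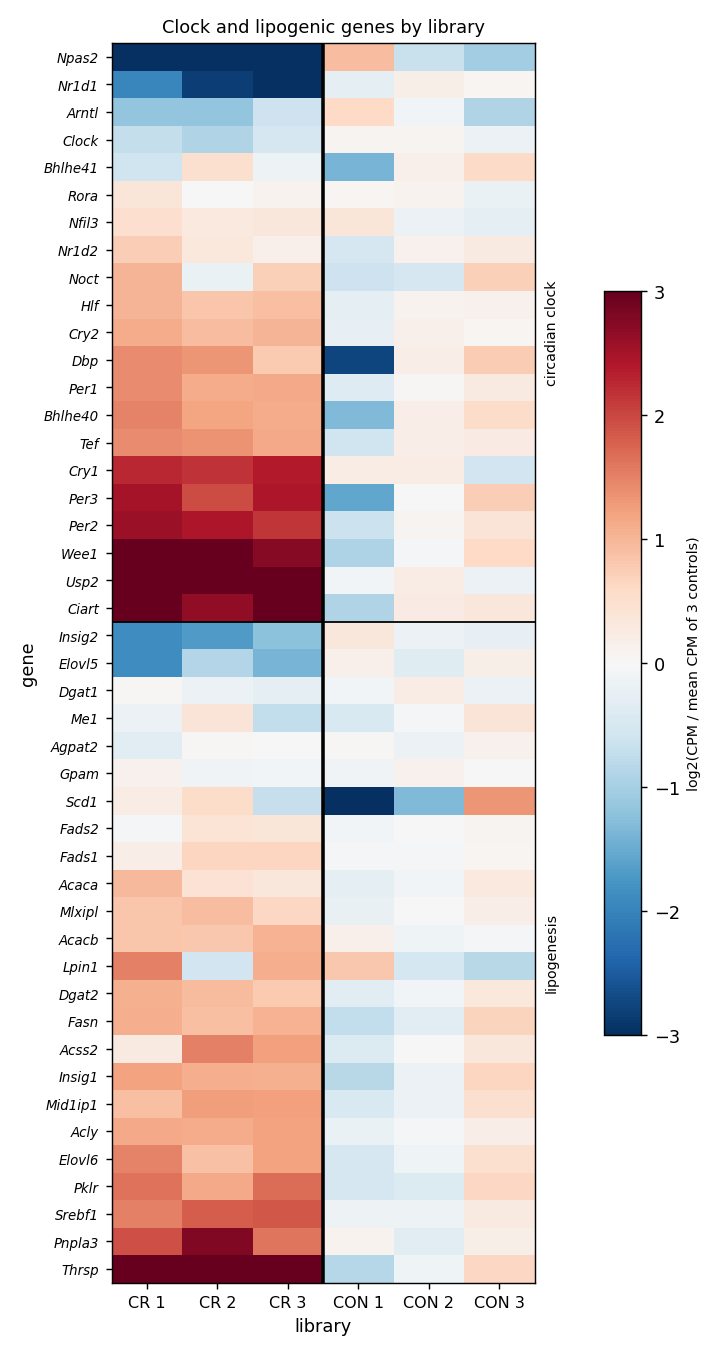
Each gene's CPM in each library over the mean of the 3 controls, on a log2 color scale that is capped at -3 and 3, for all but 1 of the clock genes (upper block) and all but 1 of the lipogenic genes (lower block), sorted by fold change. Most rows of both blocks are red, above the control mean, in all 3 restricted libraries (CR), with Nr1d1 and Npas2 blue at the top of the clock block and Insig2 and Elovl5 blue at the top of the lipogenic block.

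Genes of fatty acid oxidation and ketone synthesis fell more often than they rose. Of 37 tested, 15 fell and 3 rose (median -0.50). The fallen numbered 9 without control library 3. Those that rose numbered 0 without control library 1. Etfdh, which passes electrons from fatty acid oxidation to ubiquinone, had 286, 259 and 308 CPM in restricted females, against 589.8, 545 and 591 CPM in controls (log2 fold change -1.02 ± 0.12, adjusted p = 1.9e-06). Hadha and Hadhb, the subunits of the mitochondrial trifunctional enzyme, fell by 0.56 and 0.75 on the log2 scale, and Acadm, the medium-chain dehydrogenase, by 0.63. Of the peroxisomal branch, Ehhadh had 948, 1097 and 829.6 CPM in restricted females, against 3164, 2127 and 3286 CPM in controls (log2 fold change -1.58 ± 0.36, adjusted p = 0.00297). Cyp4a10, an omega-hydroxylase and target of PPARalpha, had 1939, 1894 and 2609 CPM in restricted females, against 5721, 4441 and 5404 CPM in controls (log2 fold change -1.27 ± 0.32, adjusted p = 0.00662). The groups were separate in each of these genes, and the calls were kept with any 1 library left out. Fgf21, a fasting hormone under PPARalpha, had 9.4, 10.8 and 7.89 CPM in restricted females, against 26.8, 42.3 and 37.7 CPM in controls (log2 fold change -1.93 ± 0.62, adjusted p = 0.0337). The call of Fgf21 was lost without restricted library 1, 2 or 3 or control library 2 or 3 (adjusted p = 0.0755 to 0.0923). Cpt1a, which admits fatty acids to mitochondria, had 823, 764 and 1042 CPM in restricted females, against 1249, 1200.3 and 1259.5 CPM in controls and did not pass (log2 fold change -0.50 ± 0.21, adjusted p = 0.1). Pdk4, the kinase that shuts pyruvate dehydrogenase, was 1 of the 3 that rose, with 349, 194 and 159 CPM in restricted females, against 24.2, 27.1 and 63.4 CPM in controls (log2 fold change 2.61 ± 0.69, adjusted p = 0.0109). The call of Pdk4 was lost without control library 1 (adjusted p = 0.0628).

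In glycolysis, 5 of 18 genes rose and 1 fell. Rises numbered 3 without control library 1. The 1 that fell was Ldha, lactate dehydrogenase A, with 709.6, 839 and 730.5 CPM in restricted females, against 2147, 1423 and 1839.6 CPM in controls (log2 fold change -1.25 ± 0.20, adjusted p = 7.33e-05). Pdk1, another kinase of pyruvate dehydrogenase, had 209, 142 and 235 CPM in restricted females, against 57.5, 59.4 and 109 CPM in controls (log2 fold change 1.38 ± 0.33, adjusted p = 0.00431). Pdk2, of the same family, had 143, 154 and 183 CPM in restricted females, against 91.2, 92.7 and 103 CPM in controls (log2 fold change 0.74 ± 0.14, adjusted p = 0.000488). The groups were separate in these 3 genes, which kept their calls with any 1 library left out. In gluconeogenesis and glycogen metabolism, 3 of 17 genes rose and 1 fell. Those that fell numbered 0 without restricted library 1 or control library 3. Risen members numbered 0 without control library 1 and 1 without restricted library 1. Pck1, the cytosolic carboxykinase that starts glucose synthesis, had 7598, 6349 and 6568 CPM in restricted females, against 3442, 4181 and 4437 CPM in controls (log2 fold change 0.77 ± 0.21, adjusted p = 0.0107). Ppp1r3g, a glycogen-targeting subunit of protein phosphatase that is induced by fasting, had 105, 51.3 and 39.6 CPM in restricted females, against 4.45, 13 and 9.3 CPM in controls (log2 fold change 2.88 ± 0.76, adjusted p = 0.0105). The call of Pck1 was lost without control library 1 (adjusted p = 0.0693), and the call of Ppp1r3g was lost without restricted library 1 or control library 1 (adjusted p = 0.0548 to 0.0648). G6pc, the phosphatase that releases glucose, had 629, 610.1 and 726 CPM in restricted females, against 277, 455 and 422 CPM in controls, with no overlap, and did not pass (log2 fold change 0.77 ± 0.41, adjusted p = 0.216). Among 25 genes of insulin and nutrient sensing, 4 rose and 2 fell. Falls numbered 0 without restricted library 2 and 1 without control library 3. The risen numbered 1 without restricted library 1. Foxo3, a transcription factor that insulin signaling keeps out of the nucleus, had 107, 94.9 and 104 CPM in restricted females, against 61.1, 60.4 and 51 CPM in controls (log2 fold change 0.83 ± 0.20, adjusted p = 0.00525). Mtor had 70.1, 58.3 and 77.9 CPM in restricted females, against 106, 88.4 and 124 CPM in controls (log2 fold change -0.63 ± 0.16, adjusted p = 0.00799). The call of Mtor was lost without restricted library 2 or control library 3 (adjusted p = 0.0616 to 0.0642).

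Some growth hormone targets and sex-biased genes rose and others fell, where 7.73% of all genes rose and 9.29% fell. Of 19 genes of the growth hormone and IGF axis, 2 rose and 0 fell. Those that rose numbered 1 without control library 1 or 2. Igf1, the hormone that liver secretes in answer to growth hormone, had 643, 494 and 868 CPM in restricted females, against 408, 307 and 448 CPM in controls (log2 fold change 0.79 ± 0.15, adjusted p = 0.000792), and kept its call with any 1 library left out. The other was Cux2, a female-biased transcription factor, with 109, 66.5 and 87.9 CPM in restricted females, against 10.5, 6.05 and 17.6 CPM in controls (log2 fold change 2.95 ± 0.79, adjusted p = 0.0113). The call of Cux2 was lost without control library 1 or 2 (adjusted p = 0.0516 to 0.0541). Cish and Socs2, feedback inhibitors that growth hormone induces through STAT5, had log2 fold changes of 2.25 ± 0.88 and 1.18 ± 0.56, each with no overlap, and did not pass. Major urinary proteins, pheromone carriers that male liver makes most and that depend on pulsed growth hormone, fell in part. Of 19 Mup genes tested, of 21 listed, 8 fell and 0 rose (median -2.56). Fallen members numbered 5 without control library 3. Mup10 had 99.4, 290.3 and 236 CPM in restricted females, against 1816, 2293 and 5079 CPM in controls (log2 fold change -3.88 ± 0.44, adjusted p = 1.73e-06). Mup9 had 69.5, 42.7 and 63.1 CPM in restricted females, against 371, 934 and 3356 CPM in controls (log2 fold change -4.73 ± 0.79, adjusted p = 0.000207, with a log2 fold change of -3.48 without control library 3). Mup17 had 10.5, 8.94 and 11.8 CPM in restricted females, against 119, 165 and 347 CPM in controls (log2 fold change -4.34 ± 0.71, adjusted p = 0.000182). The third control was the highest in all 3 genes, and even the lowest control lay above every restricted value. Mup3 showed a smaller difference (log2 fold change -1.26 ± 0.31). Slco1a1, a male-biased organic anion carrier, had 1.27, 1.28 and 5.9 CPM in restricted females, against 20.5, 25.2 and 15.3 CPM in controls (log2 fold change -2.83 ± 0.67, adjusted p = 0.00458, with a log2 fold change of -4.00 without restricted library 3). Of 28 female-biased liver genes, 2 rose and 3 fell, and of 19 male-biased ones 0 rose and 4 fell. The female-biased counts lay near the shares of all genes given above and are not a result about that list. In the female-biased list, those that rose numbered 0 without control library 1 and 1 without restricted library 2 or control library 2 or 3. Sult3a1, a female-biased sulfotransferase, had 10, 69 and 73 CPM in restricted females, against 305, 244 and 496 CPM in controls (log2 fold change -2.78 ± 0.54, adjusted p = 0.000994), and its paralog Sult3a2 had a log2 fold change of -3.17. The call of Sult3a2 was lost without control library 3 (adjusted p = 0.0552).

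Many genes of glutathione conjugation rose, while sulfiredoxin and glutathione reductase fell. Of 25 genes of glutathione metabolism and NRF2 targets that were tested, of 28 listed, 10 rose and 3 fell, and 8 to 10 rose with 1 library left out. Among glutathione S-transferases, which conjugate electrophiles, Gstm3 had 48.1, 24.7 and 62.8 CPM in restricted females, against 4.36, 2.26 and 4.7 CPM in controls (log2 fold change 3.58 ± 0.66, adjusted p = 0.000569). Gsta2 had 34.1, 34.7 and 38.8 CPM in restricted females, against 6.33, 7.16 and 9.52 CPM in controls (log2 fold change 2.23 ± 0.38, adjusted p = 0.000215). Gsta3 had 1403, 1718 and 1589 CPM in restricted females, against 452, 605 and 622 CPM in controls (log2 fold change 1.49 ± 0.25, adjusted p = 0.000192). Gsta1 was below 1 CPM in every control (3.12, 5.84 and 5.57 CPM in restricted females, against 0.184, 0.26 and 0.354 CPM in controls, log2 fold change 4.18 ± 0.83, adjusted p = 0.00108). Gstm1 rose by 1.03 on the log2 scale, whereas Gstm4 fell by 0.97. All groups were separate in these 6 transferases. The other members that fell were reductases. Srxn1, sulfiredoxin, which restores oxidized peroxiredoxin and is a standard NRF2 target, had 15.7, 13.9 and 20.1 CPM in restricted females, against 60.6, 50.3 and 51 CPM in controls (log2 fold change -1.70 ± 0.18, adjusted p = 6.88e-07). Gsr, glutathione reductase, had 33, 42.5 and 29.8 CPM in restricted females, against 81, 72.6 and 55.5 CPM in controls (log2 fold change -0.99 ± 0.26, adjusted p = 0.0088). Of 30 genes of drug and steroid metabolism, 6 rose and 1 fell. The fallen numbered 0 without restricted library 1 or 2 or control library 3. Abcb1a, the efflux pump P-glycoprotein, had 48.9, 55.5 and 58.2 CPM in restricted females, against 10.6, 10.9 and 12.2 CPM in controls (log2 fold change 2.27 ± 0.32, adjusted p = 2.86e-05). Por, the reductase that feeds electrons to all microsomal cytochromes P450, had 1858, 1767 and 2126 CPM in restricted females, against 829, 861 and 687 CPM in controls (log2 fold change 1.27 ± 0.22, adjusted p = 0.000192). Cyp2a5, a coumarin hydroxylase, had 3125, 3084 and 3572 CPM in restricted females, against 343, 1084 and 589 CPM in controls (log2 fold change 2.28 ± 0.49, adjusted p = 0.00234). Nr1i2, the xenobiotic receptor PXR, rose by 0.79 on the log2 scale. Every restricted value of these 4 genes was above every control value, and all calls named in this paragraph were kept with any 1 library left out. Cyp2b10, a target of the receptor CAR, had 47.7, 47.1 and 50.8 CPM in restricted females, against 12, 20.5 and 6.37 CPM in controls and did not pass (log2 fold change 1.91 ± 0.73, adjusted p = 0.075).

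Bile acid and lipoprotein genes were lower in part. Of 23 bile acid genes tested, 6 fell and 2 rose, and 4 or 5 fell with 1 library left out. Rises numbered 1 without restricted library 2 or control library 1. Hsd3b7, which acts early in both routes of bile acid synthesis, had 162, 191 and 221 CPM in restricted females, against 508, 452 and 661 CPM in controls (log2 fold change -1.50 ± 0.17, adjusted p = 1.17e-06). Acox2, which shortens the side chain in peroxisomes, had 93.3, 90.6 and 167 CPM in restricted females, against 238, 232 and 256 CPM in controls (log2 fold change -1.05 ± 0.19, adjusted p = 0.000473). Abcb4, which moves phospholipid into bile, had 473, 415 and 420.4 CPM in restricted females, against 878, 702 and 777 CPM in controls (log2 fold change -0.85 ± 0.13, adjusted p = 5.25e-05). The groups were separate in these 3 genes. Akr1d1, the steroid 5beta-reductase, rose, with 209.7, 199.9 and 262 CPM in restricted females, against 95.4, 141 and 123 CPM in controls (log2 fold change 0.90 ± 0.22, adjusted p = 0.00471). Its restricted values all lay above its control values. Cyp7a1, the rate-limiting enzyme, had 32, 27.2 and 87.6 CPM in restricted females, against 50.4, 99.8 and 109 CPM in controls, with overlap (log2 fold change -0.82 ± 0.76, adjusted p = 0.505). Cyp8b1, which sets the share of cholic acid, had 185, 296 and 303 CPM in restricted females, against 728, 739.8 and 676 CPM in controls without overlap but did not pass (log2 fold change -1.45 ± 0.58, adjusted p = 0.09). Of 28 lipoprotein and lipid droplet genes, 5 fell and 0 rose. Apoa4, an apolipoprotein whose liver transcript follows triglyceride load, had 203, 217 and 219 CPM in restricted females, against 2666, 932 and 1427 CPM in controls (log2 fold change -2.97 ± 0.54, adjusted p = 0.000488). Apoa1, the main protein of HDL, had 7238, 8373 and 8778 CPM in restricted females, against 13089, 10754 and 15456 CPM in controls (log2 fold change -0.69 ± 0.16, adjusted p = 0.00294). Mttp, which loads lipid onto apolipoprotein B in the ER, had 356, 285 and 319 CPM in restricted females, against 466, 456 and 494 CPM in controls (log2 fold change -0.56 ± 0.12, adjusted p = 0.00266), and Fabp2, a fatty acid-binding protein, fell by 1.50 on the log2 scale. None of these 4 overlapped between the groups, and the calls named in this paragraph were kept with any 1 library left out.

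In amino acid catabolism and the urea cycle, 3 of 30 genes rose and 4 fell. These counts were not far from the shares of all genes (7.73% rose and 9.29% fell). Risen members numbered 1 without restricted library 3 or control library 1. Kynu, kynureninase of the tryptophan route, had 64, 65.9 and 77.1 CPM in restricted females, against 141, 151 and 131 CPM in controls (log2 fold change -1.03 ± 0.18, adjusted p = 0.000326). Its groups did not overlap. Of 18 genes of methionine and one-carbon metabolism that were tested, 3 rose and 5 fell. Those that fell numbered 2 without restricted library 1 or 2 or control library 1 and 3 without control library 2. Bhmt, which remethylates homocysteine with betaine, had 788, 1681 and 4079 CPM in restricted females, against 9658, 6539 and 8838 CPM in controls (log2 fold change -1.93 ± 0.48, adjusted p = 0.00666, with a log2 fold change of -2.77 without restricted library 3). Its restricted values varied more than its control values, yet all 3 lay below all controls. Cbs, which commits homocysteine to cysteine, had 337, 291 and 329 CPM in restricted females, against 761, 665 and 470.3 CPM in controls (log2 fold change -0.99 ± 0.20, adjusted p = 0.00115). Pemt, which uses S-adenosylmethionine to make phosphatidylcholine, rose, with 443, 558 and 466 CPM in restricted females, against 268, 264 and 344 CPM in controls (log2 fold change 0.74 ± 0.17, adjusted p = 0.00308). Aldh1l1, the folate enzyme 10-formyltetrahydrofolate dehydrogenase, had 1418, 1998 and 2048 CPM in restricted females, against 933, 1038 and 709 CPM in controls (log2 fold change 1.03 ± 0.23, adjusted p = 0.00313). The calls of these 5 genes were kept with any 1 library left out. Mat1a, which makes S-adenosylmethionine, had 4832, 4023 and 5601 CPM in restricted females, against 8668, 8611 and 6153 CPM in controls (log2 fold change -0.70 ± 0.23, adjusted p = 0.0388). The call of Mat1a was lost without restricted library 1 or 2 or control library 1 or 2 (adjusted p = 0.0921 to 0.175).

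Some interferon-induced genes fell, with calls that hung on single libraries. Of 25, 7 fell and 0 rose with all 6 libraries. Falls numbered 0 without control library 3, 2 without restricted library 1 or 2 and 4 without restricted library 3. Irgm1, an interferon-induced GTPase, had 16.2, 19 and 18.1 CPM in restricted females, against 27.3, 33.7 and 50.6 CPM in controls (log2 fold change -1.06 ± 0.26, adjusted p = 0.00549). Rsad2, the antiviral protein viperin, had 4.02, 3.43 and 3.78 CPM in restricted females, against 6.85, 14.6 and 11.5 CPM in controls (log2 fold change -1.55 ± 0.47, adjusted p = 0.022). The call of Irgm1 was lost without control library 3 (adjusted p = 0.0594), and the call of Rsad2 was lost without restricted library 1, 2 or 3 or control library 2 or 3 (adjusted p = 0.0506 to 0.0872). Both had groups that did not overlap. On the same scale of 1000000 counts, the 16 lymphocyte markers summed to 8.17, 17.7 and 8.91 in restricted mice, against 26.1, 20.7 and 20.3 in controls. All restricted sums lay below all control sums. Of the 13 markers tested, however, 0 passed (1 fell without CR_6m_F_2), with a median log2 fold change of -1.07. All restricted values lay below all control values in 1 marker and above them in 1, against 17.4% and 16.4% of all genes. The sums are thus not a result about lymphocytes, and the part of cell numbers in the interferon genes was not tested. The 12 Kupffer cell and macrophage markers summed to 229, 344 and 226 in restricted mice, against 280.3, 376 and 201 in controls, with overlap. Of 31 acute phase and coagulation genes, 5 fell and 0 rose. Fallen members numbered 3 without restricted library 1 or 2 or control library 2 or 3. The risen numbered 1 without restricted library 3 or control library 3. C9, of the membrane attack complex, had 59.8, 65.5 and 75.5 CPM in restricted females, against 92, 136 and 143 CPM in controls (log2 fold change -0.88 ± 0.17, adjusted p = 0.000631). Hp, haptoglobin, had 1857, 2328 and 1889 CPM in restricted females, against 3299.9, 3116 and 3915 CPM in controls (log2 fold change -0.77 ± 0.20, adjusted p = 0.00812). In a list of 18 genes of glucocorticoid action, which holds the receptor, the plasma carrier and targets, 3 rose and 0 fell. They were Serpina6, the clock gene Per1 and Nr3c1, which encodes the receptor itself, and the other 15 did not pass. The call of Nr3c1 was lost without restricted library 1 or 3 or control library 1 or 2 (adjusted p = 0.0515 to 0.15). Those that rose numbered 1 without restricted library 1 or control library 1 or 2. Serpina6, the plasma carrier of corticosterone, had 970.2, 1262 and 683 CPM in restricted females, against 207, 267 and 290.0 CPM in controls (log2 fold change 1.93 ± 0.39, adjusted p = 0.00129). Each of C9, Hp and Serpina6 was without overlap and kept its call with any 1 library left out.

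Among 30 genes of autophagy and lysosomes, 3 rose and 6 fell, against 7.73% and 9.29% of all genes. The rises were thus near the share of all genes. Sqstm1, the autophagy receptor whose values are given with the proteasome, had the lowest log2 fold change of the list (-0.77). Tfeb, the transcription factor of lysosome genes, had 24.3, 23.3 and 20.6 CPM in restricted females, against 11, 14.5 and 12.9 CPM in controls (log2 fold change 0.83 ± 0.17, adjusted p = 0.00121), and Mcoln1, the lysosomal calcium channel, and Bnip3, a mitophagy receptor, rose by 0.53 and 0.50 on the log2 scale. Lamp2, a lysosomal membrane protein, had 458, 397 and 468 CPM in restricted females, against 589, 585 and 607 CPM in controls (log2 fold change -0.43 ± 0.10, adjusted p = 0.00317), and Atp6v1h, a subunit of the proton pump, fell by 0.60. The groups were separate in each of these genes, and the calls were kept with any 1 library left out. Of 22 cell cycle genes tested, 2 rose and 1 fell, near or below the shares of all genes. The fallen numbered 0 without control library 3. Rises numbered 1 without restricted library 2 or control library 1 or 2. The 1 that fell was Ccnd1, cyclin D1, with 18.3, 18.6 and 19.1 CPM in restricted females, against 72, 39.1 and 110.0 CPM in controls (log2 fold change -1.98 ± 0.53, adjusted p = 0.0109). The call of Ccnd1 was lost without control library 3 (adjusted p = 0.0652). Pcna, the sliding clamp of DNA replication, rose by 0.53 on the log2 scale.

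The ribosomal and respiratory chain genes that passed all rose. Of 72 cytosolic ribosomal protein genes, 5 rose and 0 fell, with a median log2 fold change of 0.28. Risen members numbered 3 without restricted library 2 or control library 3. Over all genes 7.73% rose, so the share of ribosomal genes called was not above that of all genes. All restricted values lay above all control values in 45 of the 72, against 16.4% of all genes. Rps24 had 175, 187 and 164 CPM in restricted females, against 124, 127 and 117 CPM in controls (log2 fold change 0.51 ± 0.12, adjusted p = 0.00421), and Rps4x and Rpl31 rose by 0.44 and 0.44 on the log2 scale. These 3 had no overlap and kept their calls. Of 75 nuclear genes of the respiratory chain, 12 rose, against 7.73% of all genes, and 0 fell (median 0.24). All restricted values lay above all control values in 45, against 16.4% of all genes. The risen numbered 1 without restricted library 2, 2 without control library 1, 5 without restricted library 1 or 3, 6 without control library 2 and 7 without control library 3. Sdhb, of complex II, had 209.9, 234 and 243 CPM in restricted females, against 138, 165 and 146 CPM in controls (log2 fold change 0.61 ± 0.13, adjusted p = 0.00155) and kept its call.

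Outside the lists, the genes with the largest changes had mixed roles. Tgm1, a transglutaminase, had 29.2, 27.9 and 26.3 CPM in restricted females, against 3.78, 3.04 and 4 CPM in controls (log2 fold change 2.94 ± 0.34, adjusted p = 1.89e-06). Col27a1, a fibrillar collagen, had 36.2, 72.6 and 28.7 CPM in restricted females, against 5.04, 8.09 and 8.63 CPM in controls (log2 fold change 2.66 ± 0.40, adjusted p = 5.96e-05). Dsg1c, a desmosomal cadherin, had 48.5, 27.9 and 28.6 CPM in restricted females, against 4.55, 8.28 and 4.17 CPM in controls (log2 fold change 2.63 ± 0.46, adjusted p = 0.000326). Tgm1 and Dsg1c are known best from keratinized epithelium. Restricted library 2 held the highest value of Col27a1 and Fbf1, and restricted library 1 that of Tgm1, Dsg1c and Hcn3. A part of other tissue RNA in these values was not tested. Hcn3, a cation channel, had 19.1, 6.71 and 10.6 CPM in restricted females, against 1.17, 1.45 and 3.64 CPM in controls (log2 fold change 2.54 ± 0.55, adjusted p = 0.00218, with a log2 fold change of 3.21 without control library 3). Fbf1, a protein of the ciliary base, had 70.8, 89.6 and 15.8 CPM in restricted females, against 4.55, 13.9 and 10.1 CPM in controls (log2 fold change 2.63 ± 0.56, adjusted p = 0.00203). All 5 were higher in every restricted mouse than in any control. Of those that fell, Egr1, an immediate early transcription factor, had 8.29, 9.01 and 5.97 CPM in restricted females, against 61, 177 and 109 CPM in controls (log2 fold change -3.90 ± 0.99, adjusted p = 0.00774). Rab36, a small GTPase, had 1.03, 1.21 and 2.56 CPM in restricted females, against 22.8, 18.3 and 15.2 CPM in controls (log2 fold change -3.53 ± 0.31, adjusted p = 4.78e-08). Spon2, a secreted matrix protein, had 2.34, 4.83 and 2.33 CPM in restricted females, against 24.3, 10.8 and 31.1 CPM in controls (log2 fold change -2.80 ± 0.46, adjusted p = 0.000178). Each restricted value of these 3 was below each control value, and the 8 calls of this paragraph were kept with any 1 library left out. These 8 genes were chosen for no overlap and for a call kept without CR_6m_F_2, so that neither trait is a result here.

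The same restriction in males of 6 months changed 1162 of 14816 genes (7.84%), with 542 higher (3.66%) and 620 lower (4.18%). Of these, 678 were called in the same direction in females, which is 26.9% of the female and 58.3% of the male calls, and 1 in the opposite direction. That gene, Dnajb5, a cytosolic co-chaperone, had log2 fold changes of 0.74 in females and -0.77 in males, and its difference between the sexes did not pass (adjusted p = 0.0889). The call of Dnajb5 was lost without restricted library 2 or control library 1 or 2 (adjusted p = 0.0619 to 0.157). The test of the difference between the sexes itself called 1 gene of 14816 (0.00675%), with 1194 at an unadjusted p under 0.05 and 28 called by DESeq2. It called 3 without restricted male library 1 and 2 without control male library 2. The gene called with all libraries was Cyp2b9, a female-biased cytochrome P450, which had 484, 538 and 492 CPM in restricted females, against 559, 559 and 724 CPM in controls, a difference that did not pass (log2 fold change -0.28 ± 0.47, adjusted p = 0.74). In males it had 58.6, 87.9 and 228 CPM in restricted males, against 1.47, 1.24 and 1.2 CPM in male controls on the scale of the joint fit. The male log2 fold change was 6.59, and the female effect minus the male effect was -6.87 ± 0.77 (adjusted p = 3.08e-05). Restricted males thus lay between male controls and both female groups. Of the ER chaperones, 12 fell and 1 rose in females, and 11 fell and 1 rose in males. Of the proteasome subunits, 27 fell in females and 11 in males. For Hspa5 the log2 fold change was -1.81 in females and -1.85 in males, and for Psmd1 -1.03 and -0.67, and neither difference passed (adjusted p = 0.994 and 0.491). The second restricted male also held 8230 counts of muscle markers.

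Females of 12 months after 8 months of restriction differed from those of 6 months in many of these genes. In a fit of 60 libraries of both ages, restriction changed 1965 of 15159 genes at 6 months (13%) and 1318 at 12 months (8.69%), of which 563 were higher (3.71%) and 755 lower (4.98%). The difference between the ages passed in 1020 genes (6.73%), with 467 higher (3.08%) and 553 lower (3.65%) at 6 months. It passed in 651 genes without control library 1 and in 668 without 12-month control library 1. Age, the length of restriction and the hour of collection, which is not given, cannot be told apart here. The 12-month controls differed among themselves in clock genes, with Dbp at 61.1, 123 and 0.819 CPM on the scale of that fit. Of 21 ER chaperones, 2 rose and 0 fell at 12 months, and 7 had a lower effect at 6 months. On the CPM scale of that fit Hspa5 had 854, 991 and 674 CPM in restricted mice of 12 months, against 614, 433 and 591 CPM in their controls. Its log2 fold change was -1.81 at 6 months and 0.62 at 12 months (difference -2.43 ± 0.47, adjusted p = 0.000934). Manf had 86.4, 108 and 108 CPM in restricted mice of 12 months, against 66.2, 45.1 and 50.1 CPM in their controls (difference -3.03 ± 0.64, adjusted p = 0.00229). Hyou1 had 234, 305 and 175 CPM in restricted mice of 12 months, against 114, 71.4 and 93.3 CPM in their controls (difference -2.99 ± 0.56, adjusted p = 0.000591). Creld2 had 51.5, 119 and 71.1 CPM in restricted mice of 12 months, against 30.2, 19 and 16.9 CPM in their controls (difference -3.55 ± 0.88, adjusted p = 0.00929). Control levels of these chaperones at 12 months did not lie above the restricted ones as they did at 6 months. Of 32 proteasome subunits, 1 rose and 0 fell at 12 months, and 18 had a lower effect at 6 months. Psmd14 had 41.2, 57.8 and 57 CPM in restricted mice of 12 months, against 36.1, 45 and 45 CPM in their controls (difference -1.43 ± 0.22, adjusted p = 5.41e-05), and for Psmd1 the 2 effects were -1.02 and 0.23 (difference -1.25 ± 0.19, adjusted p = 6.09e-05). The difference of Creld2 was lost without control library 3 (adjusted p = 0.0638).

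Of the genes with larger effects at 6 months, Thrsp had 357, 570.3 and 373 CPM in restricted mice of 12 months, against 211, 507 and 77.6 CPM in their controls (difference 4.20 ± 1.08, adjusted p = 0.0121). Gstm3 had 127, 62.6 and 59.3 CPM in restricted mice of 12 months, against 68.8, 95.2 and 53.8 CPM in their controls (difference 3.39 ± 0.83, adjusted p = 0.00828). Tgm1 had 26.9, 18 and 20.5 CPM in restricted mice of 12 months, against 24.9, 17.3 and 19.7 CPM in their controls (difference 2.87 ± 0.50, adjusted p = 0.000249). In each of these 3 the 12-month groups were closer together than those of 6 months. Cux2 had 8.45, 3.44 and 1.84 CPM in restricted mice of 12 months, against 28.1, 49.8 and 11.6 CPM in their controls (difference 5.63 ± 1.19, adjusted p = 0.00229). Rgs16, a regulator of G protein signaling with a fasting and feeding rhythm, had 6.53, 12.3 and 4.29 CPM in restricted mice of 12 months, against 54.8, 106 and 11.3 CPM in their controls (difference 4.83 ± 1.21, adjusted p = 0.0101). Cyp2g1, best known from olfactory tissue, had 5.01, 2.94 and 6.68 CPM in restricted mice of 12 months, against 15.3, 27.5 and 14.1 CPM in their controls (difference 4.03 ± 0.68, adjusted p = 0.000179). These 3 had opposite signs of the log2 fold change at the 2 ages. Nr1d1 fell at both, by 2.60 at 6 months and by 5.84 at 12 months (difference 3.24 ± 0.71, adjusted p = 0.00305). Cry1 rose at both, by 2.28 at 6 months and by 2.98 at 12 months, and the difference did not pass (adjusted p = 0.308). The difference of Thrsp was lost without 12-month control library 2 (adjusted p = 0.0649). At 6 months in the fit of 36 libraries, the call of Rgs16 was lost without restricted library 1 (adjusted p = 0.052). The first restricted library of 12 months held 3659 counts of adrenal markers.

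**Figure D5:**
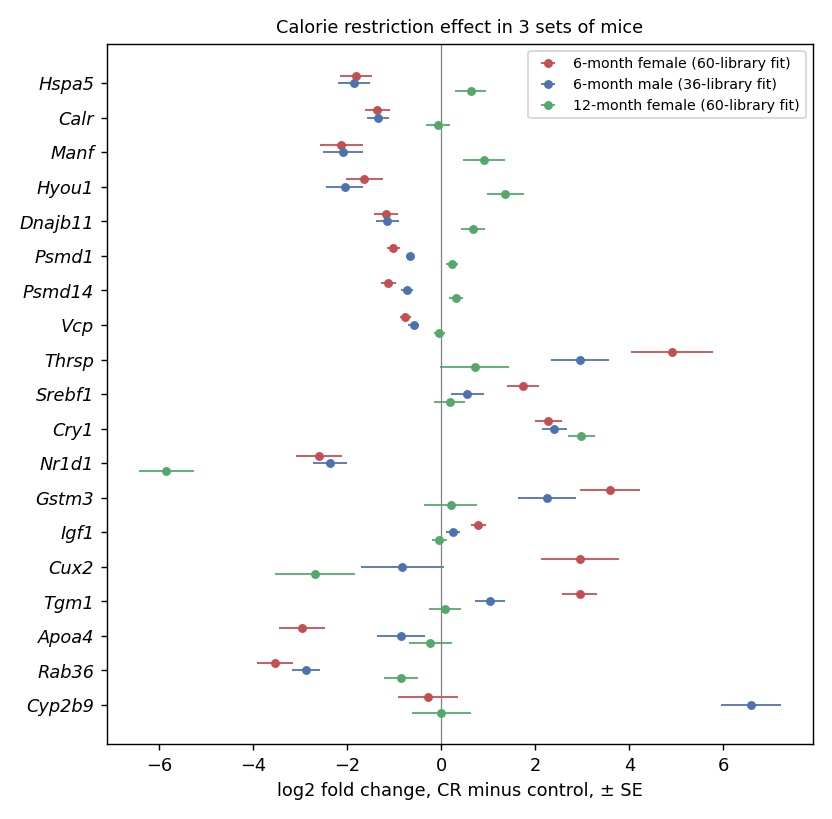
Log2 fold changes of restricted over control mice (points) with their standard errors (bars) for 19 genes in 6-month females, 6-month males and 12-month females, 3 libraries per group. Chaperone and proteasome genes lie below 0 in both sexes at 6 months and near or above 0 at 12 months, and Cyp2b9 lies far above 0 in males alone among the 3 sets.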

How the data were processed

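Liver poly(A) RNA was prepared with the TruSeq RNA v2 kit and sequenced in 78 libraries of 3 biological replicates per group, per the labels. The deposited table gives raw counts of reads assigned to 43629 genes, of which 42548 have a symbol. The submitters' processing notes name bcl2fastq 1.8.4, Trimmomatic 0.32, STAR 2.5.2b, featureCounts 1.5 and the mm10 (GRCm38) genome, and the strand setting of the authors' counting is not given in the sources used here. Reads that fit several paralogs can be lost or split by such counting.

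The deposited counts were filtered with filterByExpr, scaled by TMM and tested with edgeR 4.0.16 (quasi-likelihood test, robust, limma 3.58.1, R 4.3.3). The 36 libraries of 6 months (12 groups) were fitted together, and 60 libraries of 6 and 12 months for the difference between ages. Benjamini-Hochberg adjustment ran over all genes tested. CPM values are those computed here from the counts with TMM factors. The steps were tested on simulated data.

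Genes were named by role in a list, by the smallest adjusted p (up to 6 per list), by the largest change (up to 14 per direction with a mean log2 CPM of at least 2, no overlap and a call kept without CR_6m_F_2) or by the largest difference between groups (up to 6 per direction). The comparison, its members and the gene lists were chosen with earlier results of these data known, so that their counts are descriptions with no test of a list. Of the genes named by size of change, a part is described, and a few genes that these rules or lists hold are not reported here, though they stay in the counts. Dnajb5 was named because it was the 1 gene called in opposite directions in the sexes, and Lor, Krt13, Krt4 and H19 after their values in CR_6m_F_2 were seen. Alternatives were RLE size factors, no filter, only the compared groups, DESeq2 1.42.0, the replicate number as a block, the libraries with RNA of other tissues left out, and each library left out in turn.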

Additional observations from a re-analysis of the deposited data

Results flagged for a closer look

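Some results in which the effect of restriction differed between groups by a test of the difference itself are listed here, in log2 units. In the comparison of the sexes at 6 months, Cyp2b9 had a female minus male difference of -6.87 ± 0.77.

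Between females of 6 and 12 months, 8 genes with a higher effect at 6 months are listed. The 6-month minus 12-month differences were Cux2 5.63, Rgs16 4.83, Thrsp 4.20, Cyp2g1 4.03, Hcn3 3.59, Gstm3 3.39, Nr1d1 3.24 and Tgm1 2.87. For Nr1d1 this means a smaller fall at 6 months, since it fell at both ages. The 9 genes listed with a lower effect at 6 months were Creld2 -3.55, Cntnap1 -3.47, Manf -3.03, Hyou1 -2.99, Ccnf -2.95, Fam131c -2.80, Hspa5 -2.43, Psmd14 -1.43 and Psmd1 -1.25. Other genes named above also passed with all libraries, among them Fbf1 (2.60), Dsg1c (2.57), Apoa4 (-2.73), Rab36 (-2.67), Mup10 (-2.01) and Atf5 (-1.32). The difference of Atf5 was lost without restricted library 2 (adjusted p = 0.0689). Hspa5, Psmd1, Psmd14, Nr1d1 and Tgm1 were named for their roles and for the 6-month result, after their values were seen.

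Hcn3, the cation channel above, had log2 fold changes of 2.54 at 6 months and -1.05 at 12 months (difference 3.59 ± 0.94, adjusted p = 0.0135). Cntnap1, a paranodal protein of myelinated axons, had log2 fold changes of -2.86 at 6 months and 0.61 at 12 months (difference -3.47 ± 0.95, adjusted p = 0.0185). Ccnf, cyclin F, had log2 fold changes of -1.94 at 6 months and 1.01 at 12 months (difference -2.95 ± 0.82, adjusted p = 0.0197). Fam131c had log2 fold changes of -1.92 at 6 months and 0.88 at 12 months (difference -2.80 ± 0.72, adjusted p = 0.0121). The difference of Hcn3 was lost without restricted library 1 or control library 1 (adjusted p = 0.0531 to 0.0539). The difference of Cntnap1 was lost without control library 1, 12-month restricted library 1 or 12-month control library 1 (adjusted p = 0.0511 to 0.0949). The difference of Ccnf was lost without restricted library 1 or 3, control library 1 or 3, 12-month restricted library 2 or 12-month control library 1 (adjusted p = 0.0522 to 0.0741). In the fit of 36 libraries at 6 months, the call of Cntnap1 was lost without restricted library 2 or control library 1 (adjusted p = 0.0618 to 0.0788). The call of Ccnf was lost without restricted library 1 or 3 or control library 1 or 3 (adjusted p = 0.108 to 0.132). The call of Fam131c was lost without restricted library 1 or 2 or control library 3 (adjusted p = 0.0636 to 0.0763). Age, length of restriction and hour of collection cannot be told apart in these differences.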

How the results depend on the processing

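The count of changed genes in 6-month females was 2523, and it was 2520 with RLE size factors, 1858 without a filter on low counts and 2780 with DESeq2. It was 1514 with only the 6 compared libraries in the fit and 1289 without the 6 libraries of 6 months that held RNA of other tissues, CR_6m_F_2 among them. Leaving out 1 library gave 1389 to 2473 calls. The difference between the sexes passed in 1 gene, in 28 with DESeq2 and in 1 to 3 with 1 library left out. The difference between the ages passed in 1020 genes, in 646 without a filter, in 439 with only the compared groups, in 577 without the 8 libraries with other tissue RNA, in 1360 with DESeq2 and in 651 to 1151 with 1 library left out.

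Of the genes named or listed by the rule that could be tested, 0 of 228 lost their call with RLE size factors, 0 of 226 with DESeq2, 31 of 228 without a filter, 50 of 227 with only the compared groups and 68 of 227 without the 6 libraries. In these 5 settings the sign of a called gene reversed in 0. Of 68 list counts, 22 moved by over 1.5 times without the 6 libraries. The causes were not tested.

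Replicate numbers 1 to 3 are shared across groups. The deviations of same-numbered libraries from their group means correlated at -0.0904, 0.0145 and 0.17 for numbers 1 to 3, and restricted libraries 1 and 2 correlated best with another number, so that the numbers were not taken to pair the mice. With the replicate block the counts were 2578 for restriction, 1 for the sexes and 1048 for the ages, and 2 named genes lost their call.

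With 3 libraries per group, the p-values rest on spread pooled over all groups of a fit (36 or 60 libraries). That spread is therefore not of the compared mice alone, and it covers mice of this series only. Depth limits the genes of few counts, such as Npas2 in restricted mice.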

Other observations

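Markers of the liver lobule's zones did not move together. Hepatocytes near the central vein make glutamine and hold most of the drug-metabolizing enzymes, whereas those near the portal vein make urea and glucose. Of 12 pericentral markers, 1 rose and 2 fell, and of 12 periportal markers 1 rose and 0 fell. Over all genes 7.73% rose and 9.29% fell, so these few calls are not a result about the zones. The summed pericentral markers had 13930, 11690 and 12400 counts per 1000000 in restricted females, against 13050, 12760 and 11850 in controls, and the periportal ones 22270, 19410 and 20640 counts per 1000000 in restricted females, against 18270, 21390 and 12460 in controls, with overlap in both. Glul, glutamine synthetase, had 930.1, 896 and 898 CPM in restricted females, against 1456, 935 and 1609 CPM in controls (log2 fold change -0.55 ± 0.18, adjusted p = 0.0314). Oat, ornithine aminotransferase, had 763, 584 and 821 CPM in restricted females, against 1531, 1393 and 1296 CPM in controls (log2 fold change -0.96 ± 0.25, adjusted p = 0.0088). Cyp1a2, the caffeine-oxidizing P450, had 854, 1491 and 845 CPM in restricted females, against 359, 541 and 474 CPM in controls (log2 fold change 1.21 ± 0.30, adjusted p = 0.00537). Restricted values of these 3 genes did not overlap with control values. The call of Glul was lost without restricted library 1, 2 or 3 or control library 1 or 3 (adjusted p = 0.0655 to 0.187), and the call of Oat was lost without restricted library 2 (adjusted p = 0.0631). The call of Cyp1a2 was lost without restricted library 2 (adjusted p = 0.0677). The periportal marker that rose was Pck1, described above.

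Class I and class II genes of the major histocompatibility complex varied between libraries of 1 group. H2-K1, a class I antigen, had 121, 1042 and 111 CPM in restricted females, against 763, 1.86 and 875 CPM in controls (log2 fold change -0.36 ± 1.85, adjusted p = 0.927). H2-Ab1, a class II chain, had 0.205, 26.4 and 0.169 CPM in restricted females, against 10.4, 0 and 7.36 CPM in controls (log2 fold change 0.59 ± 1.97, adjusted p = 0.88). In both genes the second restricted library and control libraries 1 and 3 were high. B2m, the light chain shared by class I molecules, had 827, 971 and 879 CPM in restricted females, against 769.8, 992 and 1013 CPM in controls, a narrow range by comparison. These genes were named after their values were seen, and nothing was tested about the source of the variation.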
